A study of Mus musculus with 3 samples.

Results

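Surface and secreted molecules through which myeloid cells address T cells were followed by name in the count tables. These 9 genes, of 14221 listed in any of the 3 tables, were Cd86, Cd40, Cd83 and Cd48 on the stimulatory side and Cd274, Lag3, Havcr2, Vsir and Lgals9 on the inhibitory side. Every table listed all 9. The cells were CD11b+ CD45+ cells sorted from digested mouse brain and sequenced with a droplet 3' kit. The groups were 1 library from an MHC class II-deficient mouse, labelled as having almost no CD4 T cells, and 2 libraries from adult wild type (WT) mice. The labels name neither the strain nor the allele, and give no age for the deficient mouse. With 1 deficient library, the spread between deficient animals was not measured, and genotype, age and library cannot be told apart.

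A T cell that meets its antigen also reads co-signals on the presenting cell. Stimulatory ligands of the B7, tumour necrosis factor receptor and SLAM families favour activation, while checkpoint ligands and receptors restrain it. Microglia, the resident macrophages of the brain, carry several of the inhibitory molecules, whereas macrophages of the brain borders (meninges, choroid plexus and perivascular spaces) are better known for antigen presentation.

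The tables held 2278 barcodes in the deficient library and 4589 and 4815 in WT 1 and WT 2, with 6616662, 16230216 and 17293844 unique molecular identifiers (UMIs). The deficient table listed none of H2-Aa, H2-Ab1 and H2-Eb1, the classical class II chains, while H2-Ab1 gave 3802 and 4448 UMIs in WT 1 and WT 2. Between 13 and 30 barcodes were shared by each pair of libraries. Cells were assigned to a class where its marker list held at least 60% of the UMIs of all class lists. Microglia numbered 2198 in the deficient library and 3902 and 4405 in WT 1 and WT 2, border macrophages 5 against 19 and 18, monocytes 21 against 44 and 32, and neutrophils 17 against 314 and 149. A further 16 deficient cells and 60 and 63 WT cells stayed unassigned, and 8, 72 and 62 cells had a share within 10 percentage points of the limit. Median depth in microglia was 2826.5 UMIs in the deficient library and 3381.5 and 3333 in WT 1 and WT 2. The 8 microglial markers were all detected in the microglia of every library. Of the 9 border macrophage markers the deficient table listed 6, while both WT tables listed all 9. The class rule thus drew on fewer of these markers in the deficient library, and the part of this in its number of border macrophages was not tested. The summed neutrophil list stood at 49.5 CPM (counts per 1e6 UMIs) in microglia of the deficient library against 1165 and 624.5 CPM in those of WT 1 and WT 2.

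Of the 4 stimulatory molecules, 3 had ample UMIs in microglia of both genotypes and Cd40 had few. Cd86 (chr16:36603869-36666081, minus strand), the B7 ligand that CD28 and CTLA-4 bind, stood at 280 CPM in the deficient library against 290.4 and 279.7 CPM in WT 1 and WT 2. Cd83 (chr13:43784775-43803132, plus strand), a glycoprotein that keeps CD86 and class II molecules at the cell surface, stood at 352.5 CPM in the deficient library against 385.4 and 306.1 CPM in WT. In both cases the deficient value lay inside the range of the WT pair. Cd48 (chr1:171682009-171705258, plus strand), a SLAM family ligand of CD2 and CD244, stood at 174.9 CPM in the deficient library against 159.4 and 155.8 CPM in WT, just above both. Cd40 (chr2:165055627-165072948, plus strand), the receptor through which CD40 ligand of T cells acts on presenting cells, gave 3 UMIs in deficient microglia against 15 and 6 in WT. These were 0.467 CPM against 1.07 and 0.377 CPM. A Cd40 UMI was found in 3 of 2198 deficient microglia and in 14 of 3902 and 5 of 4405 WT microglia. Neutrophils gave a Cd40 UMI in 0 of 17 deficient cells and in 0 of 314 and 1 of 149 WT cells, with exact binomial upper bounds of 19.5%, 1.17% and 3.68%. Their median depths were 2177, 2953 and 3386 UMIs, against 2826.5, 3381.5 and 3333 UMIs in microglia. The microglial shares lay under these bounds, which the small numbers of neutrophils set wide. The comparison therefore cannot tell microglial expression from background, and no conclusion is drawn from it. Positions are on GRCm38 (mm10).

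The inhibitory molecule with the most UMIs was Vsir (chr10:60346851-60372684, plus strand), which encodes VISTA, a B7-like checkpoint molecule of myeloid cells. It stood at 1893 CPM in the deficient library against 1720 and 1742 CPM in WT 1 and WT 2, and 98.4% of deficient microglia and 98.5% and 98.9% of WT microglia held at least 1 UMI. VISTA transcripts were thus found in nearly every microglial cell of either genotype. Lag3 (chr6:124904361-124911705, minus strand), a receptor whose best known ligand is the class II molecule itself, stood at 366.04 CPM in the deficient library against 327.2 and 362.7 CPM in WT. Havcr2 (chr11:46454935-46481255, plus strand), which encodes the checkpoint receptor TIM-3, stood at 197 CPM in the deficient library against 226.7 and 213 CPM in WT. Lag3 lay at the upper edge of the WT values, and Havcr2 was the only inhibitory molecule above 100 CPM that stood below both WT libraries. Lgals9 (chr11:78962974-78984946, minus strand), which encodes galectin-9, a lectin that binds TIM-3, stood at 135.6 CPM in the deficient library against 117.3 and 128.4 CPM in WT. Cd274 (chr19:29367455-29388095, plus strand), which encodes PD-L1, the ligand of PD-1, was scarce, with 22 UMIs in deficient microglia and 62 and 65 in those of WT 1 and WT 2, or 3.42 CPM against 4.41 and 4.08 CPM. Vsir overlaps Cdh23, and Cd274 the annotated AC119228.1, on the other strand, and Cd48 overlaps Gm37010 on its own strand. Whether counting used the strand is not given in the sources used here, so reads of these neighbours may be included.

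None of the 9 molecules passed the test of deficient against WT microglia. The edgeR quasi-likelihood test called 896 of 11891 genes (7.54%) at a Benjamini-Hochberg adjusted p under 0.05, 159 higher and 737 lower. The immediate early list stood at 8902 CPM in deficient microglia against 24170 and 16933 CPM in WT microglia. Of the 9 members, 0 were called, and 0 had an unadjusted p under 0.05. By DESeq2 and limma voom the members called were likewise 0. The lowest unadjusted p was 0.0984, for Cd48. The median log2 fold change was 0.01 over the stimulatory and 0.09 over the inhibitory molecules, against -0.002 over all genes tested. The deficient value lay outside the WT range for 6 members, in both directions, as it did for 80.8% of all genes tested.

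The width of the intervals says how much of a change could have gone unseen. For Cd86 the log2 fold change was -0.02 (SE 0.09, 95% interval -0.23 to 0.19), and for Cd83 0.04 (SE 0.13, -0.25 to 0.32). For Lag3 it was 0.09 (SE 0.11, -0.14 to 0.33), for Havcr2 -0.15 (SE 0.09, -0.36 to 0.06) and for Vsir 0.14 (SE 0.12, -0.12 to 0.39). For these molecules, for Cd48 (0.16, -0.04 to 0.35) and for Lgals9 (0.15, -0.06 to 0.36) the interval stayed within 0.4 on the log2 scale. The scarce molecules were not so bounded, with Cd274 at -0.30 (SE 0.32, -1.001 to 0.404) and Cd40 at -0.57 (SE 0.97, -2.71 to 1.56). The spread behind these errors came from the WT pair alone (residual df 1), and the lone deficient library was taken to vary like it.

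**Figure D1:**
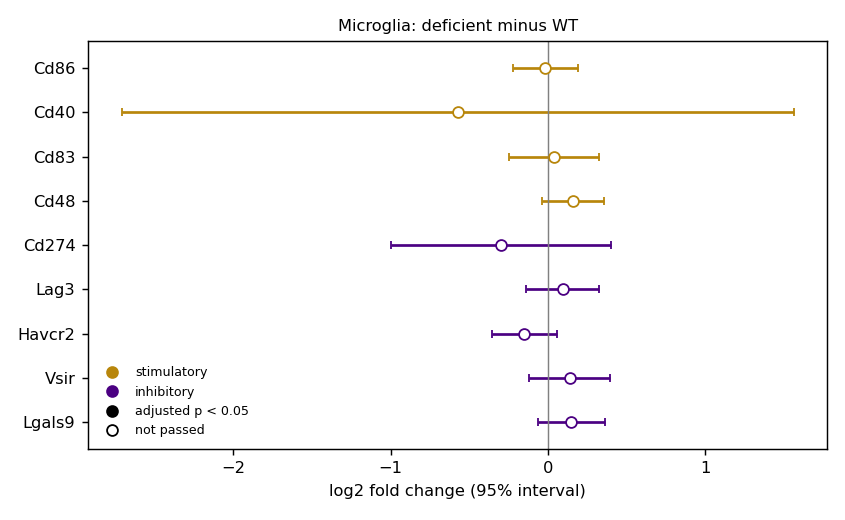
Log2 fold change of each molecule in microglia, deficient minus WT (x axis; edgeR, 1 deficient and 2 WT libraries), with 95% intervals. All 9 points are open, since none passed, and 7 of the intervals lie within 0.4 of zero while those of Cd40 and Cd274 are wide.

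Other co-signalling genes of microglia were read from lists of 26 stimulatory and 31 inhibitory genes. Of the stimulatory list 14 genes could be tested, and 1 of them rose while 0 fell, against 1.34% higher and 6.2% lower over all genes of the fit. The remaining 13 missed the threshold, and the list's median was -0.13 on the log2 scale, against -0.002 over all genes. The gene that rose was Tnfsf9, the ligand of the T cell receptor 4-1BB, at 22.5 TMM-normalised CPM in the deficient library against 11.2 and 10.3 CPM in WT 1 and WT 2 (log2 fold change 1.06, SE 0.16, adjusted p = 0.00118, edgeR). Its deficient value was about double that of either WT library. Icam1, an adhesion ligand of LFA-1, stood at 287.1 CPM in the deficient library against 345.9 and 290.4 CPM in WT, and did not pass (adjusted p = 0.550, edgeR). Cd84, a SLAM family receptor, stood at 309.3 CPM in the deficient library against 278.9 and 272.6 CPM in WT, and Icosl, the ligand of ICOS, at 60.4 CPM against 66.8 and 54.5 CPM. Neither passed.

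Of the inhibitory list 15 genes could be tested, and 3 of them fell while 0 rose, against the same 6.2% lower and 1.34% higher over all genes. The remaining 12 missed the threshold, and the list's median was -0.06 on the log2 scale. Sirpa, the receptor of CD47 that restrains phagocytosis, stood at 623.1 CPM in the deficient library against 864.1 and 861.4 CPM in WT 1 and WT 2 (log2 fold change -0.47, SE 0.11, adjusted p = 0.0214, edgeR). Tgfb1, a cytokine that restrains T cells, stood at 465.8 CPM in the deficient library against 623.9 and 619.6 CPM in WT (-0.42, SE 0.10, adjusted p = 0.0328, edgeR). Lgals3, which encodes galectin-3, stood at 4.38 CPM in the deficient library against 10.3 and 10.7 CPM in WT (-1.26, SE 0.24, adjusted p = 0.00758, edgeR). All 3 lay below both WT libraries. These 3 calls and that of Tnfsf9 were not followed under the other settings. Hmgb1, a nuclear protein that binds TIM-3 when released, stood at 442.8 CPM in the deficient library against 385.9 and 405.7 CPM in WT and did not pass.

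The cell classes differed in which of these molecules they carried. Border macrophages were set against microglia in one fit over all libraries with library as a block. Of the 5930 genes tested, 935 (15.8%) were called, 7.79% as higher and 7.98% as lower. Among the stimulatory molecules 3 of 4 were higher in border macrophages and 0 lower, with a median log2 difference of 1.44. Among the inhibitory molecules 0 of 5 were higher and 3 lower, with a median of -2.46, against -0.20 over all genes tested.

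Cd83 stood at 234.3 CPM, from 4 UMIs, in the 5 border macrophages of the deficient library and at 1789 and 1557 CPM in those of WT 1 and WT 2, against 352.5, 385.4 and 306.1 CPM in the microglia of the same libraries. The difference over all libraries was 1.90 on the log2 scale (SE 0.33, adjusted p = 3.89e-07, edgeR). The WT libraries carried it, with the deficient library below its microglia. A list of immediate early genes, described further on, stood at 13119 CPM in border macrophages of the deficient library and at 60274 and 30215 CPM in those of WT, and its part in the Cd83 level was not tested. Cd86 stood at 527.1 CPM in border macrophages of the deficient library and at 691 and 514.7 CPM in those of WT 1 and WT 2, all above 300 CPM, against 280, 290.4 and 279.7 CPM in microglia (0.98, SE 0.30, adjusted p = 0.0115). That call was lost without a filter on low counts (adjusted p = 0.104), after thinning each cell to 1000 UMIs (0.0779) and without WT 1 (0.322) or WT 2 (0.289). The Cd83 call was lost without WT 2 (0.0521). Cd40 gave 2, 1 and 7 UMIs in border macrophages of the deficient library, WT 1 and WT 2, or 117.1, 12.3 and 87.9 CPM, against at most 1.07 CPM in microglia (6.37, SE 0.98, adjusted p = 9.44e-09, edgeR). These UMIs came from 1, 1 and 2 cells, and 1 cell held 6 of the 7 in WT 2. The deficient and WT 1 values lay under the level of 3 counts (175.7 and 37.0 CPM). The call thus rests on a few cells. Cd48 did not pass (0.85, SE 0.34, adjusted p = 0.0672, edgeR), and passed by DESeq2 (0.0151).

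Lag3, Havcr2 and Vsir were lower in border macrophages. Lag3 gave 1 UMI in the border macrophages of each library, or 58.6 CPM in the deficient library and 12.3 and 12.6 CPM in WT 1 and WT 2, against 366.04, 327.2 and 362.7 CPM in microglia (log2 difference -4.31, SE 0.60, adjusted p = 1.73e-10, edgeR). Havcr2 gave 1, 0 and 3 UMIs in them (-3.18, SE 0.58, adjusted p = 2.03e-06, edgeR). Vsir was detected in 40.0% of deficient and 78.9% and 83.3% of WT border macrophages and stood at 175.7 CPM in the deficient library and at 345.5 and 389.1 CPM in WT 1 and WT 2, below the 1720 to 1893 CPM of microglia (-2.46, SE 0.41, adjusted p = 1.09e-07, edgeR). The microglial marker list still stood at 527.1 CPM in border macrophages of the deficient library and 1098 and 1080 CPM in those of WT, against 17311, 16516 and 18010 CPM in microglia. The part of that in the Vsir level was not tested. Lgals9 (-1.12, adjusted p = 0.108) and Cd274 (2.11, adjusted p = 0.289, 3 UMIs in all) did not pass.

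Monocytes were higher than microglia in Cd48 and Cd40 and lower in Lag3, Havcr2 and Vsir. In this comparison 3097 of 5930 genes (52.2%) were called, 26% as higher and 26.2% as lower, so that a call was common. Of the stimulatory molecules 2 of 4 were higher and 0 lower, and of the inhibitory ones 0 of 5 were higher and 3 lower. Cd48 stood at 398.1 CPM in monocytes of the deficient library and at 464.3 and 453.9 CPM in those of WT 1 and WT 2, against 174.9, 159.4 and 155.8 CPM in microglia (1.57, SE 0.25, adjusted p = 1.35e-08, edgeR). Each library showed more than a doubling, although the call was lost after thinning (adjusted p = 0.153). Cd40 stood at 108.6 CPM in deficient monocytes and 23.7 and 48.01 CPM in WT monocytes, from 9, 8 and 11 UMIs (6.20, SE 0.67, adjusted p = 3.44e-17, edgeR). Monocytes held 64.3% of all Cd40 UMIs of the deficient library and 24.2% and 31.4% of those of WT 1 and WT 2, although they were 0.930% of the cells of the deficient library and 1.01% and 0.686% of those of WT.

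Lag3 was scarce in monocytes, with 1, 1 and 4 UMIs in those of the deficient library, WT 1 and WT 2 (log2 difference -5.07, SE 0.45, adjusted p = 5.83e-24, edgeR). Havcr2 stood at 72.4 CPM in deficient monocytes and 26.6 and 26.2 CPM in WT monocytes (-2.54, SE 0.34, adjusted p = 3.41e-12), and Vsir at 398.1 CPM in deficient and 458.4 and 340.4 CPM in WT monocytes (-2.06, SE 0.36, adjusted p = 1.62e-07, edgeR). All 3 stood below the microglia of every library. Cd86 (-0.47, adjusted p = 0.157), Cd83 (-0.41, 0.300), Lgals9 (-0.54, 0.0898) and Cd274 (1.19, 0.282) did not pass by edgeR. With a stricter class rule of at least 80% list share, Cd86 (0.0140), Cd83 (6.70e-05) and Lgals9 (0.0107) passed as lower in monocytes.

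**Figure D2:**
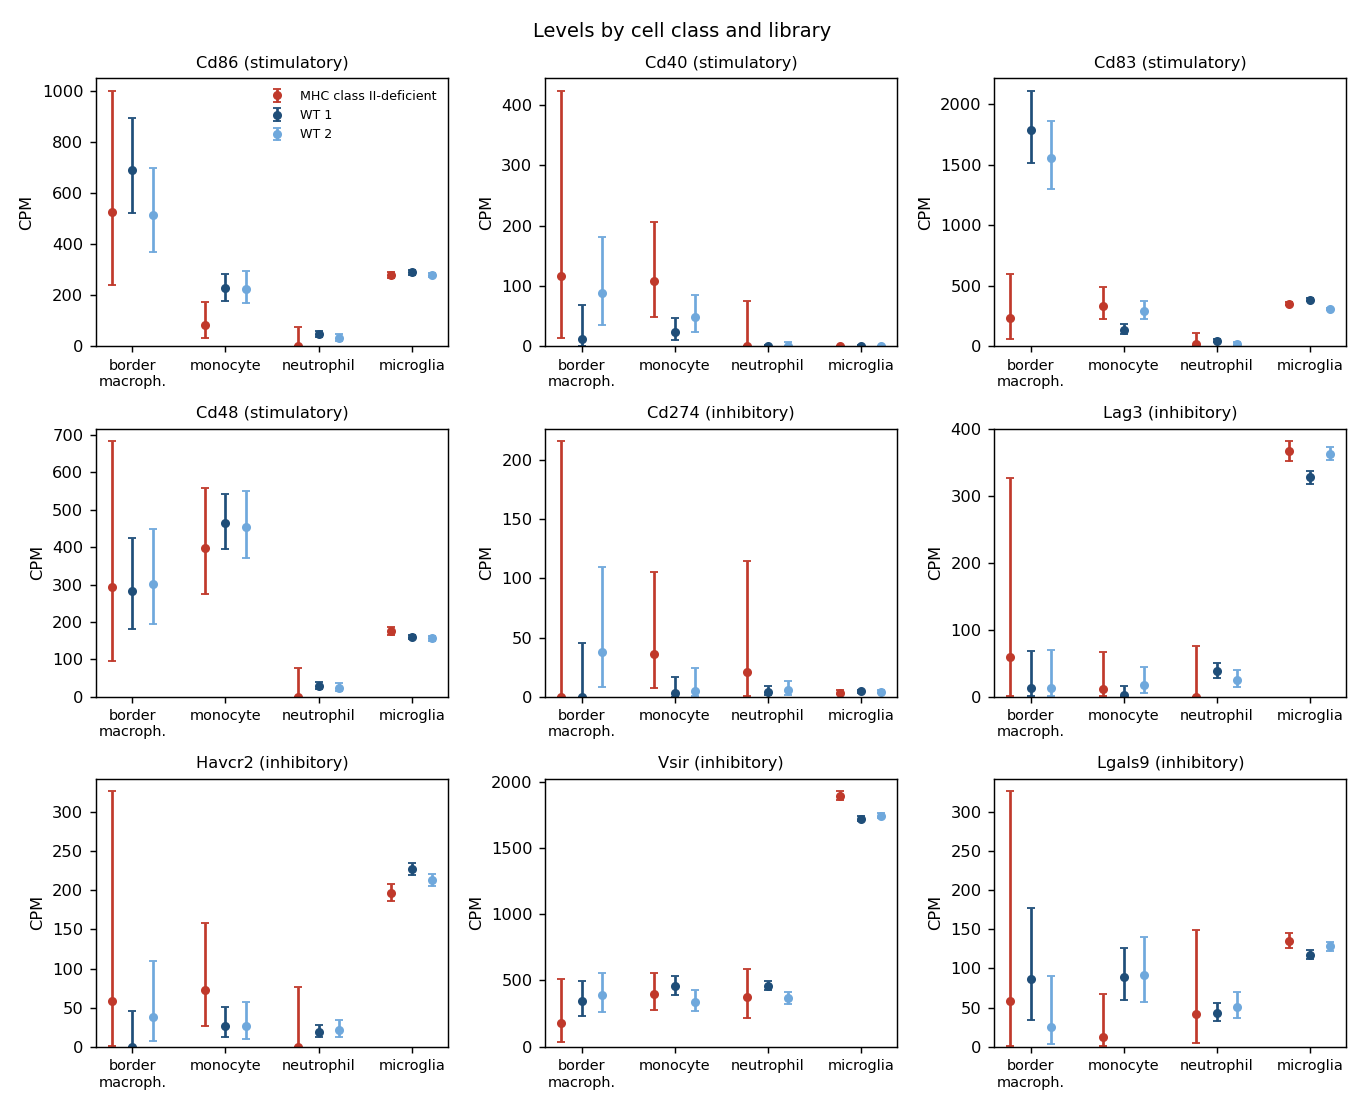
CPM of each molecule (y axis, linear, from 0) in 4 cell classes (x axis) for the deficient library (red), WT 1 (dark blue) and WT 2 (light blue), with exact Poisson 95% intervals for counting error only. Lag3, Havcr2 and Vsir are highest in microglia of every library, Cd48 in monocytes, and Cd83 in the border macrophages of both WT libraries but not in the 5 of the deficient library.

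Neutrophils were lower than microglia in 6 of the 9 molecules. Here 3591 of 5930 genes (60.6%) were called, 1731 higher (29.2%) and 1860 lower (31.4%). The neutrophil marker list itself stood at 471210 CPM in neutrophils of the deficient library and at 425530 and 467580 CPM in those of WT 1 and WT 2. Scaling by library totals in place of TMM factors gave 769 higher and 4199 lower genes, with a median over all genes of -1.33 in place of -0.12. Differences are given on both scales. Lag3 (-2.24, SE 0.29, and -3.44 with library totals), Havcr2 (-2.26, SE 0.29, and -3.49), Cd83 (-2.24, SE 0.38, and -3.37), Cd86 (-1.84, SE 0.32, and -2.98) and Cd48 (-1.49, SE 0.33, and -2.66) were lower under both scalings. Their adjusted p-values by edgeR ran up to 2.73e-05 on the TMM scale. Vsir was lower by less (-1.07, SE 0.35, adjusted p = 0.00558, and -2.15 with library totals), a call lost without WT 2 (adjusted p = 0.0981). Lgals9 did not pass on the TMM scale (-0.22, adjusted p = 0.451) and passed with library totals (-1.43). Cd274 passed on the TMM scale only (1.66, adjusted p = 0.0388, and 0.47 with library totals), on 1, 6 and 4 UMIs in neutrophils of the deficient library, WT 1 and WT 2. DESeq2 did not call it (adjusted p = 0.119).

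In neutrophils the microglial marker list stood at 0.835% of its microglial level in the deficient library and at 9.15% and 7.38% in WT 1 and WT 2. Lag3 stood at 11.6% and 6.89% and Havcr2 at 8.20% and 9.88% of their microglial CPM in WT 1 and WT 2, close to the list. Both had 0 UMIs in deficient neutrophils, which allows up to 76.1 CPM (exact Poisson 95% upper bound). Vsir stood at 19.6% of its microglial level in neutrophils of the deficient library and 26.8% and 21.1% in those of WT, and Lgals9 at 30.5%, 37.2% and 39.9%. These were above the list in every library. A Vsir UMI was found in 47.1% of deficient neutrophils and 69.1% and 71.1% of WT neutrophils, at median depths of 2177, 2953 and 3386 UMIs. At an equal depth of 1000 UMIs these shares were 6.67% of 15 deficient neutrophils and 34.1% and 28.6% of 287 and 133 WT neutrophils, and those of microglia 83.6% in the deficient library and 81.9% and 82.4% in WT.

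**Figure D3:**
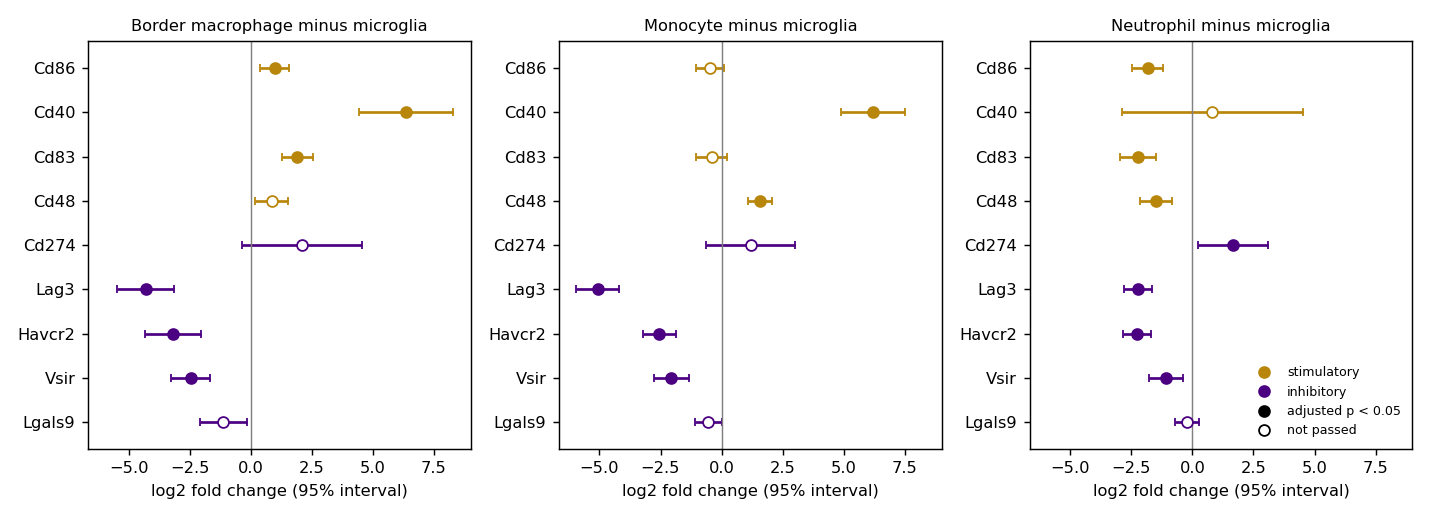
Log2 difference of each molecule between a cell class and microglia (x axis; edgeR with library as a block, 12 sums from 3 libraries), with 95% intervals. Filled points passed at an adjusted p under 0.05. Lag3, Havcr2 and Vsir lie left of zero in all 3 panels, while Cd40 lies far to the right, and filled, in border macrophages and monocytes.

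Whether the deficient library differed from WT by another amount in these classes than in microglia was tested with an interaction of genotype and class. In border macrophages 15 of 7252 genes (0.207%) were called, 2 higher (0.0276%) and 13 lower (0.179%), and Cd83 was among the lower. Its interaction was -3.60 on the log2 scale (SE 0.65, adjusted p = 0.00231, edgeR). It rested on 4 UMIs in 5 deficient cells (Poisson 95% interval 63.8 to 599.8 CPM), whose TMM factor was 1.70 against 1.07 and 1.17 for WT 1 and WT 2. With library totals 3 genes were called, 2 higher and 1 lower, and Cd83 (-2.89) was not among them (adjusted p = 0.199). It was also lost by DESeq2 (0.118), by limma voom (0.201), after thinning (0.132) and with a looser class rule of at least 50% list share and 2 markers (-0.94, 0.777). The looser rule took 8 deficient cells in place of 5. Over all genes of the border macrophage fit the median log2 interaction was -0.94, and -0.29 with library totals, so that the Cd83 value does not stand against a center of zero.

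Other cells high in Cd83 lay at least in part outside the classes. Unassigned cells stood at 1726 CPM of Cd83 in the deficient library against 1034 and 1163 CPM in WT 1 and WT 2. The deficient value came from 61 UMIs in 5 of 16 cells. The WT values came from 275 UMIs in 36 of 60 cells and 294 UMIs in 33 of 63 cells. In unassigned cells the border macrophage list stood at 1047 CPM in the deficient library against 2341 and 2192 CPM in WT. Their microglial list stood at 1019 CPM against 3668 and 2880 CPM, and their neutrophil list at 1952.5 CPM against 1649.8 and 1000.9 CPM. Their monocyte list stood at 1188.5 CPM against 1401.8 and 1546.9 CPM, and their dendritic cell list at 28.3 CPM against 139 and 743.8 CPM. Their lymphocyte list stood at 226.4 CPM against 481 and 245.3 CPM. The make-up of these cells was not tested. Cells with at least 1% of their UMIs from Cd74, the invariant chain of class II molecules, numbered 13 in the deficient library and 48 in each WT library, and stood at 1230 CPM of Cd83 against 1321 and 869.1 CPM in WT. These cells overlap the unassigned ones, which made up 7 of the 13 in the deficient library and 26 and 25 of the 48 in WT 1 and WT 2. Microglia were 0 of the deficient cells of this set and 11 and 13 of the WT cells, and monocytes 4 of the deficient and 2 and 5 of the WT cells, so that the sets differ in make-up. Their Cd86 stood at 378.6 CPM in the deficient library against 327.6 and 304.3 CPM, and their Cd40 at 157.8 CPM, from 10 UMIs, against 36.4 and 52.7 CPM. This set was drawn after the data were seen, and no test was made on it.

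In monocytes and neutrophils 0 of the 9 members passed the interaction, against 36 (0.496%) and 255 (3.52%, of which 3.12% lower) of 7252 genes. At an unadjusted p under 0.05 by edgeR stood Cd86 and Lgals9 in monocytes, Cd86, Cd48, Lag3 and Vsir in neutrophils, and Vsir in border macrophages. Of all 7252 genes, 632 stood there in monocytes, 1124 in neutrophils and 470 in border macrophages. In neutrophils the median log2 interaction over all genes was -5.81, and Cd86, Cd48 and Lag3 had 0 UMIs in the 17 deficient cells. Cd86 stood at 84.4 CPM in deficient monocytes against 227.7 and 227 CPM in WT monocytes (adjusted p = 0.154), and Lgals9 at 12.1 CPM, from 1 UMI, against 88.7 and 91.7 CPM (adjusted p = 0.135). Both lay under the WT pair. Median depth moved with this difference, at 2544 UMIs in deficient monocytes against 7201 and 7563.5 UMIs in WT monocytes, and its part was not tested.

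Among microglia of one library the molecules were spread over cells in different ways. Vsir was even, with the 5% of cells richest in it holding 11.4% of its UMIs in the deficient library and 11.9% and 12.4% in WT 1 and WT 2. Cd83 was the most uneven of the molecules above 100 CPM: the richest 5% of cells held 68.04% of its UMIs in the deficient library and 54.02% and 57.9% in WT, and single cells reached 52, 55 and 48 UMIs. The variance of Cd83 over its mean was 13.1 in the deficient library and 9.72 and 9.91 in WT, against 1.19, 1.24 and 1.25 for Cd86. Cd83 UMIs were found in 27.8% of deficient microglia against 39.1% and 36.7% of WT microglia, and after thinning in 13.9% against 18.4% and 16.5%. The share was thus lowest in the deficient library before and after thinning, while its level in CPM lay between the WT values. No test was made of the shares, and with 1 deficient library no genotype difference is read from them.

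Cd83 varied with the immediate early genes, transcripts such as Fos and Egr1 that appear within minutes of a stimulus. The list of them used here also held the heat shock genes Hspa1a and Hspa1b, whose part in the ranking was not tested. Microglia were ranked by the share of their UMIs from this list. The upper quartile (at least 1.58% of UMIs) was set against the lower quartile (at most 0.409%). These are ranges and not cell types: 498 and 637 of 10505 microglia lay within 10% of the upper and the lower limit. The upper quartile took in 12.4% of deficient microglia against 37.1% and 20.6% of WT microglia, and the lower quartile 63.8% against 10.3% and 18.6%. In the fit, 1412 of 10419 genes (13.6%) were called, 944 higher (9.06%) and 468 lower (4.49%). With library totals these were 670 higher and 1889 lower, and the median over all genes was -0.18 in place of -0.01.

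Cd83 stood at 1709 CPM in the upper quartile of the deficient library and at 777 and 890.6 CPM in that of WT 1 and WT 2, against 107, 130.9 and 119.5 CPM in the lower quartile. The upper range stood above the lower in each library, and the log2 difference was 3.38 (SE 0.21, adjusted p = 2.58e-08, edgeR). Of the other members that could be tested 0 passed. Cd86, whose protein CD83 keeps at the surface, stood at 292.4, 290.2 and 279.4 CPM in the upper quartile of the deficient library, WT 1 and WT 2 and at 279.7, 302.7 and 277.9 CPM in the lowest (0.18, SE 0.09, adjusted p = 0.191, edgeR). Lgals9 (-0.24, adjusted p = 0.0781) and Vsir (-0.14, adjusted p = 0.310) did not pass on the TMM scale, and both passed as lower with library totals, as did Havcr2. By deciles of the share, Cd83 stayed between 96.7 and 166.5 CPM in the 8 lower deciles of WT 1 and reached 1404 CPM in the highest, and in WT 2 it reached 1409 CPM there.

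The size of this difference was itself unlike between the genotypes, a test added after the data were seen. In the highest decile Cd83 stood at 3061 CPM in the deficient library against 1404 and 1409 CPM in WT, and in the next lower one at 1074 CPM against 303.2 and 459.4 CPM. In the 5 lowest deciles the deficient library stood between 93.1 and 123.5 CPM, inside the 96.7 to 166.5 CPM of WT 1 but for 1 decile. In decile 6 it stood lower, at 50.6 CPM (Poisson 95% interval 25.3 to 90.6) against 115 and 124.4 CPM in WT. In decile 7 it stood at 372.4 CPM against 125 and 148.5 CPM, and in decile 8 at 419.7 CPM against 143.6 and 201.5 CPM. The interaction of genotype and range called 36 of 10861 genes (0.331%), 0.304% as higher and 0.0276% as lower, and Cd83 was among them at 1.34 on the log2 scale (SE 0.17, adjusted p = 0.000106, edgeR). The list level differed too, at 41030 CPM in the upper quartile of the deficient library against 48042 and 49859 CPM in that of WT. Klf2 and Jund, which belong to the list, fell in deficient microglia by 5.86 and 4.16 on the log2 scale. With both left out of the list the interaction was 1.14 (adjusted p = 0.000291, edgeR), and it was 1.19 without WT 1 and 1.56 without WT 2, values with no test.

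**Figure D4:**
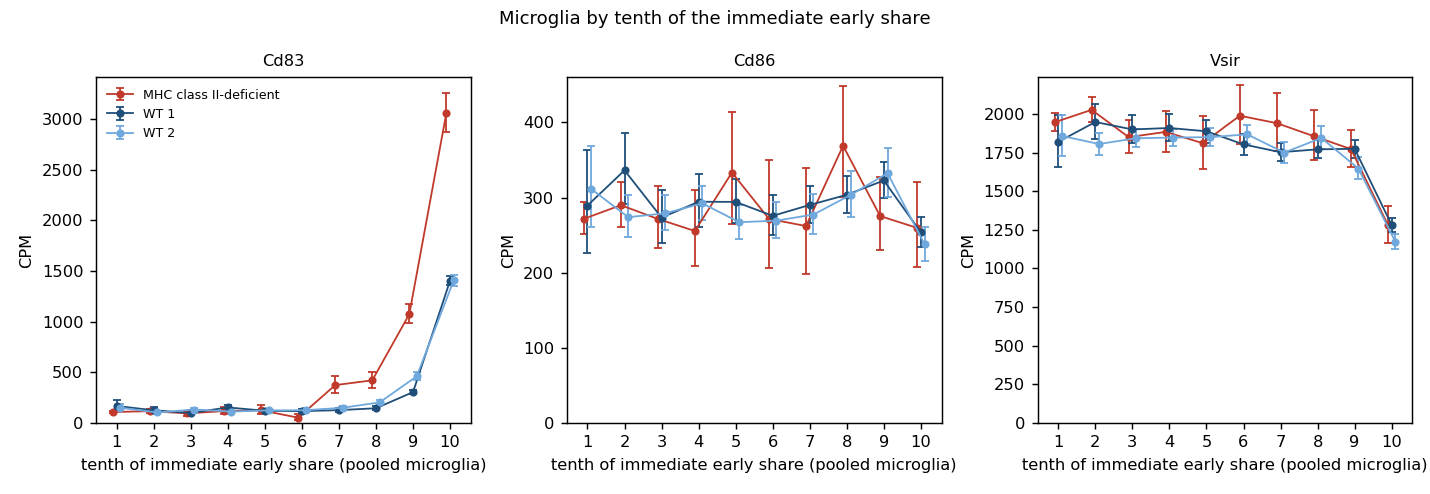
CPM of Cd83, Cd86 and Vsir (y axes, linear, from 0) in microglia by decile of the immediate early share (x axis, deciles over the pooled microglia of 3 libraries), with Poisson 95% intervals. Cd83 climbs in the last deciles, to 3061 CPM in the deficient library against 1404 and 1409 CPM in WT 1 and WT 2, whereas Cd86 stays between 237.8 and 369 CPM and Vsir is lowest in the highest decile.

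Galectin-9 transcripts were higher in microglia high in interferon-induced genes. Interferon-high microglia were those in the highest 5% of the share of an interferon-induced gene list with at least 3 of its genes, and were set against all remaining microglia. They numbered 114 in the deficient library and 141 and 151 in WT 1 and WT 2, and 179 of 10505 microglia lay within 10% of the limit. Of 10537 genes, 480 (4.56%) were called, 3.81% as higher and 0.75% as lower. Lgals9 stood at 211.6 CPM in the interferon-high microglia of the deficient library and 174 and 223.2 CPM in those of WT, against 131, 115 and 124.4 CPM in the rest. Each library showed the difference, which was 0.75 on the log2 scale (SE 0.10, adjusted p = 5.11e-10, edgeR), and all alternatives run kept the call.

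The Lgals9 promoter is shown since it bears a known interferon motif. The core of the interferon-stimulated response element (TTTC, any 2 bases, TTTC) was searched on both strands in 300 bases from 250 before to 50 after the start, as RefSeq gives them on GRCm38.p6. Of the 9 members 5 had an entry (Cd48, Cd274, Havcr2, Vsir and Lgals9), and Lgals9 alone of these held it, at 2 places that do not overlap. They begin 55 bases before and 15 bases after the start. Over all 32851 promoters of this length 3.44% hold it. The sequence at chr11:78984875-78985174 (minus strand, GRCm38.p6) reads 5' to 3' as follows, with the 2 matches in capitals.
Lgals9: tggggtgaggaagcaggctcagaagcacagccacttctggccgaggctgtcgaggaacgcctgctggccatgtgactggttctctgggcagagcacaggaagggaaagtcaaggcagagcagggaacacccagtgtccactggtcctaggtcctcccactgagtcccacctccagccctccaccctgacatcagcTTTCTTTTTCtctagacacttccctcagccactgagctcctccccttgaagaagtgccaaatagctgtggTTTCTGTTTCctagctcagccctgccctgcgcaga
A match describes letters in this window and is not evidence of binding.

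Vsir and Cd83 differed by less in the interferon-high microglia, and less steadily. Vsir stood at 1750 CPM in those of the deficient library and 1392 and 1456 CPM in those of WT 1 and WT 2, against 1902, 1734 and 1754 CPM in the rest (-0.21, SE 0.07, adjusted p = 0.0275, edgeR). Cd83 stood at 368.2, 509.1 and 370.5 CPM in them, against 351.6, 380.4 and 303.4 CPM in the rest (0.30, SE 0.09, adjusted p = 0.0154, edgeR). Without WT 1 or WT 2 neither passed, with adjusted p of 0.585 and 0.381 for Vsir and 0.595 and 0.238 for Cd83. DESeq2 called neither (0.400 and 0.278). The border macrophage list stood at 8.24 CPM in interferon-high microglia of the deficient library and 190.4 and 350.4 CPM in those of WT, against 12.9, 17.02 and 19.2 CPM in the rest. The monocyte list stood at 46.7 CPM in interferon-high microglia of the deficient library and 179.4 and 170.5 CPM in those of WT, against 13.7, 22.3 and 19.5 CPM in the rest. The part of either list in the Lgals9, Vsir, Cd83 and Cd40 differences was not tested. For Cd40, 7 of the 21 UMIs of WT microglia fell in these cells and 0 of the 3 in the deficient library, and the difference did not pass (3.22, adjusted p = 0.0704, edgeR).

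Microglia high in Lpl and Cst7, genes of the state seen at sites of damage and in development, had more Cd83 and less Vsir. This range held 10 cells of the deficient library and 27 and 42 of WT 1 and WT 2, and 521 of 10347 genes (5.04%) were called, 2.74% as higher and 2.3% as lower. The microglial list stood at 8660 CPM in it in the deficient library and 10890 and 9727 CPM in WT, against 17380, 16573 and 18126 CPM in the rest, and 245 of 10505 microglia lay within 10% of the limit. Cd83 stood at 1693 CPM in these cells of the deficient library and 1791 and 1137 CPM in those of WT, against 341.8, 371.2 and 294.4 CPM in the rest (2.14, SE 0.13, adjusted p = 9.99e-59, edgeR). Vsir stood at 1122 CPM in them in the deficient library and 1012 and 964.5 CPM in WT, against 1899, 1728 and 1753 CPM in the rest (-0.83, SE 0.13, adjusted p = 2.59e-08, edgeR). In every library both differences had the same direction. Of these cells 10% of the deficient library and 59.3% and 33.3% of WT 1 and WT 2 lay in the upper immediate early quartile, and without that quartile the differences were 2.54 for Cd83 and -0.91 for Vsir. Lag3 (0.23, adjusted p = 0.564) and Havcr2 (0.06, adjusted p = 0.947) did not pass. The fit had 2 residual degrees of freedom, and its p-values also draw on spread shared over all genes. In this range 1 cell gave 55 of the 253 Cd83 UMIs of WT 1, and 1 cell 43 of the 251 of WT 2. The small p-value for Cd83 is therefore not a measure of its own spread between mice.

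**Figure D5:**
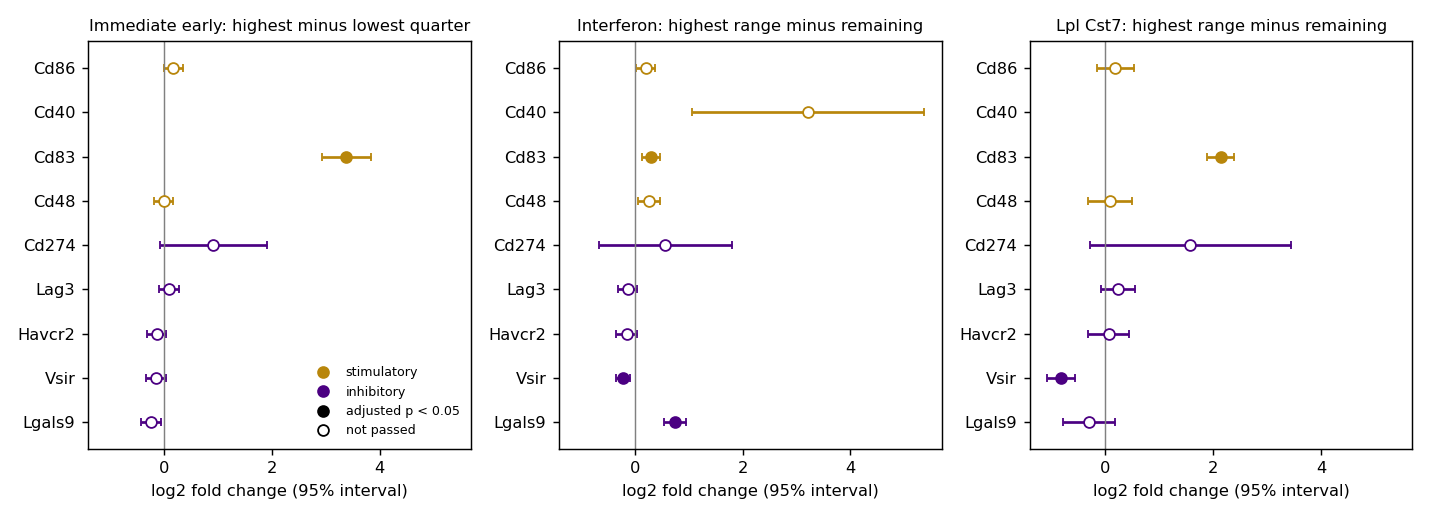
Log2 difference of each molecule between a high range of microglia and its comparison cells (x axis; edgeR with library as a block, 3 libraries), with 95% intervals and filled points for an adjusted p under 0.05. Cd83 lies at 3.38 in the immediate early and 2.14 in the Lpl Cst7 panel, Lgals9 at 0.75 in the interferon panel, and Vsir at -0.83 in the Lpl Cst7 panel. Cd40 had too few UMIs for a test in the outer panels.

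Over the 11 sums of a class in a library with at least 10 cells, the molecules fell into patterns that can be described by the correlation of log2(CPM + 1). These sums share libraries, depth and the class rule, so the values are a description. The sum of the 17 deficient neutrophils held 0 UMIs of Cd86, Cd40, Cd48, Lag3 and Havcr2, which enter as 0 on this scale. Outside microglia no sum held more than 6 Cd274 UMIs. The part of such empty or scarce sums in the correlations was not tested. Lag3 ran with Vsir (r = 0.85) and Havcr2 (0.78), and Cd86 with Cd48 (0.92) and Cd83 (0.83). The lowest values were those of Cd274 with Lgals9 (-0.77) and Cd40 with Vsir (-0.51). Among 5337 genes, those most like Lag3 were Lrrc3 (0.98), Frmd4a (0.97) and Olfml3 (0.96), the last a microglial marker used by the class rule. Those most like Vsir were Adamts1 (0.98), Atp2c1 (0.97) and Itpr2 (0.96), and those most like Havcr2 were Zfyve19 (0.98), Zfp422 (0.98) and Gnl2 (0.97). Those most like Cd83 were Snx2 (0.97), Ddx5 (0.96) and Fcgr2b (0.96), and like Cd86 Snx9, Anapc10 and Rabep1 (each 0.99). Those most like Cd48 were Rpl3 (0.996) and Filip1l (0.99), like Lgals9 Ss18 (0.94), Snrnp27 and Usf2 (0.93 each), like Cd40 Plin2 (0.96), Pfdn6 and Clec2i (0.95 each), and like Cd274 Pmvk (0.84), Ubl4a (0.84) and Fam104a (0.80).

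The same partner lists were counted in the other comparisons, where a gene had to have enough UMIs to be tested. In border macrophages against microglia 3 of 11 stimulatory partners were higher and 1 lower, and 5 of 11 inhibitory partners were higher and 3 lower, against 7.79% higher and 7.98% lower over all genes. In monocytes 5 of 11 stimulatory partners were higher and 3 lower, and 6 of 11 inhibitory ones higher and 1 lower, against 26% and 26.2% of all genes. In neutrophils 4 of 11 stimulatory partners were higher and 5 lower, and 7 of 11 inhibitory ones higher and 3 lower, against 29.2% and 31.4% of all genes. In the ranges of microglia 0 partners were lower. The upper immediate early quartile had 3 of 11 stimulatory and 3 of 15 inhibitory partners higher, against 9.06% of all genes, and the interferon-high cells 3 of 12 and 5 of 14, against 3.81%. The cells high in Lpl and Cst7 had 3 of 11 and 4 of 14 higher, against 2.74%. No test was made of the lists.

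Partners of these molecules on T cells had few UMIs. Cd3e, Cd4, Ctla4 and Cd40lg were listed in none of the 3 tables, and Cd28 in WT 2 alone, with 7 UMIs. Pdcd1, which encodes PD-1, gave 22 UMIs in the deficient library and 35 and 42 in WT 1 and WT 2, or 3.33 CPM against 2.17 and 2.44 CPM. Microglia alone stood at 3.44 TMM-normalised CPM of Pdcd1 in the deficient library against 2.47 and 2.52 CPM in WT. Its UMIs are thus not read as traces of T cells. Since cells were sorted on CD11b, which most T cells lack, these values say nothing of T cell numbers.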

How the data were processed

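Libraries were prepared with a droplet 3' kit from brain cells sorted on CD11b and CD45, per the labels' protocols. The deposited files hold UMI counts for each gene and barcode, not normalised. The submitters' processing notes name Cell Ranger 3.0, Seurat 2.2 and mm10. Other steps are not given in the sources used. A gene that a file leaves out is taken to be in fewer than about 5 cells.

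Barcodes with 500 UMIs or more, 200 genes or more and 10% mitochondrial UMIs or less were kept (2257 in the deficient library, 4340 and 4667 in WT). A cell joined the class with the most marker UMIs if 3 different markers were seen and its list held 60% or more of the UMIs of all class lists. No list holds a member. No doublet caller was run. Cells that did not meet the class rule stayed unassigned. Mixed cells that met it, doublets among them, can remain in a class. In neutrophils of WT 1 and WT 2 the microglial list had a median of 1 and 2 UMIs per cell and a mean of 6.73 and 6.78. UMIs were added up per library and class, because cells do not replicate a condition. edgeR 4.0.16 (R 4.3.3; quasi-likelihood test, TMM, filterByExpr) was run on genes listed in every table, with Benjamini-Hochberg adjustment over all of them and a threshold of 0.05. Other settings used DESeq2 1.42.0, limma 3.58.1 (voom), other class and cell rules, thinning to 1000 UMIs (seed 1), library totals, and leaving out a library. The SE is the log2 fold change divided by the root of F. The quasi-likelihood test shares spread between genes, so its p-values do not rest on the residual degrees of freedom of 1 gene alone. Intervals of counts are exact Poisson intervals at 95% and, like floors of 3 counts, cover counting error only. Since the study had 1 deficient and 2 WT mice, p-values for genotype measure only the spread of the WT pair. Of the 27 shares of microglia with a UMI of a member (9 members, 3 libraries), thinning moved 26 beyond their 95% interval. UMIs were not divided by gene length, so levels of different genes compare UMIs, not transcripts.

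Counts were simulated at the observed totals, with 1 mean per gene pooled over all sums of a fit (3 simulations, 200 genes changed, each above 20 CPM). On these, the microglia fit over 11891 genes recovered 98% of those set at -1 and 100% of those set at 1 (log2), and 3.18% of its calls were false. The monocyte fit over 5930 genes recovered 37.3% and 76%. All classes thus shared 1 mean profile, and the deficient library was drawn with the fitted dispersion. These shares therefore do not cover the differences between real classes or an effect of the 1 deficient library.

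The text names all members, every partner list gene past the threshold in microglia with the 3 of highest CPM per list, and the 3 genes most correlated with each member (log2(CPM + 1), genes averaging 20 CPM or more, Gm-numbered and Rik genes left out). For Cd48, 1 of these is not reported here. Cd3e, Cd4, Ctla4, Cd40lg, Cd28, Pdcd1, Klf2 and Jund were named after their values were seen. The members and lists were chosen with earlier results of these data known.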

Additional observations from a re-analysis of the deposited data

Results flagged for a closer look

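The difference of Cd83 between the deficient library and WT was not the same in border macrophages as in microglia, with an interaction of -3.60 on the log2 scale (adjusted p = 0.00231, edgeR). It rested on 4 UMIs in 5 deficient cells, against 145 and 124 UMIs in the 19 and 18 border macrophages of WT 1 and WT 2, and 5 of the alternatives run did not call it. The median interaction over all genes of the fit was -0.94. Unassigned deficient cells stood at 1726 CPM of Cd83, from 61 UMIs in 5 of 16 cells.

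The difference of Cd83 between the upper and the lower immediate early quartile of microglia was larger in the deficient library than in WT, with an interaction of 1.34 on the log2 scale (SE 0.17, adjusted p = 0.000106, edgeR). It came from 1590 UMIs in 272 deficient cells of the upper quartile, against 4383 and 3353 UMIs in 1447 and 908 WT cells. The deficient group is 1 library, so that genotype and library cannot be told apart.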

How the results depend on the processing

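No paired analysis was possible because the groups share fewer than 2 replicate numbers. Of 112 values of the 9 members in deficient against WT microglia under other settings, 106 kept their direction and side of the threshold and 6 changed sign, none of them called. These were Cd86 (0.007) and Cd40 (0.021) over all retained cells, Cd83 (-0.001) and Cd274 (0.354) after thinning, and Cd83 in microglia below the median immediate early share (-0.153, and -0.148 without Klf2 and Jund in the list). Of 278 values of the calls in the other comparisons 250 were kept, 27 lost the call and 1 was a value with no test that moved. Other sign changes were of values not called. They were Cd40 in neutrophils with library totals (-0.309) and over the libraries left out (-4.001 to 2.771). In the immediate early range they were Cd48 (0.003 with the 50% rule, 0.019 thinned, 0.004 without Klf2 and Jund, -0.015 to 0.002 over libraries left out) and Lag3 (-0.081, library totals). In the interferon range they were Cd86 (-0.094, thinned) and Cd274 (-0.343 to 1.218 over libraries left out). In the Lpl Cst7 range they were, after thinning, Cd86 (-0.974), Cd48 (-0.451), Lag3 (-0.284) and Havcr2 (-0.267), and without the upper immediate early quartile Cd86 (-0.182), Cd48 (-0.073) and Havcr2 (-0.008). There Cd48 was -0.062 with the 80% rule, and over libraries left out Cd48 ran between -0.286 and 0.216, Cd274 between -7.42 and 2.254 and Havcr2 between -0.105 and 0.111. The cause was not tested.

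Counts of genes called moved by more than 1.5 times as follows. For deficient against WT microglia (896) there were 491 by DESeq2 and 541 after thinning. Against microglia, thinning gave 305 in border macrophages (935), 674 in monocytes (3097) and 808 in neutrophils (3591), and libraries left out gave 411 to 1019, 1483 to 3522 and 1533 to 4468. For the interaction of genotype with the border macrophage class (15) there were 7 by DESeq2, 0 by limma voom, 26 without a filter, 3 with library totals, 30 with the strict cell filter and 8 after thinning, and edgeR had 470 at an unadjusted p under 0.05. With the monocyte class (36) there were 15 by DESeq2, 1 by voom, 56 without a filter and 7 after thinning. With the neutrophil class (255; 29 higher, 226 lower) there were 77 by DESeq2, 65 with library totals (45 higher, 20 lower), 117 with the 80% rule, 118 with the strict filter and 132 after thinning. In the immediate early range (1412) there were 557 by DESeq2 (502 higher, 55 lower), 2559 with library totals, 616 after thinning and 886 to 1648 over libraries left out. In the interferon range (480) there were 233 by DESeq2, 307 with the 80% rule, 88 after thinning, 316 without the upper immediate early quartile and 207 to 544 over libraries left out. In the Lpl Cst7 range (521) there were 245 by DESeq2, 320 by voom, 82 after thinning, 189 without that quartile and 135 to 472 over libraries left out. For the interaction of genotype with the immediate early range (36) there were 7 by DESeq2, 65 by voom, 62 without a filter and 77 with the 80% rule. The microglia and interaction fits without a WT library had no residual degrees of freedom and gave no count. Depth limits Cd40 and Cd274 in every class, and all members in the 5 border macrophages and 17 neutrophils of the deficient library.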
